A study of Mus musculus with 83 samples.

Results

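Single mouse ovarian follicles that had never been frozen were compared at 1 h and at 4 h after an ovulatory stimulus in culture. They were chosen by their labels alone, as the fresh follicles of these times, and numbered 13 of the 83 libraries of the series, 6 at 1 h and 7 at 4 h. All came from wild-type CD-1 mice, an outbred strain, and each library held the RNA of 1 follicle. Follicles had grown for 8 days in beads of 0.5% alginate and measured 300 to 350 µm when they were freed from the beads. Both groups then received a maturation medium with serum, hCG (chorionic gonadotropin, a ligand of the luteinizing hormone or LH receptor) at 1.5 IU/ml, 10 ng/ml epidermal growth factor (EGF) and 10 mIU/ml recombinant follicle-stimulating hormone (FSH), so that added EGF and FSH were common to both times. Each time occupied a plate row of its own on 1 plate, and row and time cannot be told apart. The comparison asks which transcripts change between the first and the fourth hour of the response. Vitrified follicles of the same plate and times (5 and 7 libraries) serve only to show whether a change differed in them.

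In a follicle, granulosa cells surround the oocyte and theca cells lie outside a basement membrane. LH acts on mural granulosa cells, which signal through cAMP and then release EGF-like ligands that carry the signal to the cumulus cells around the oocyte. Within hours the granulosa layer turns from estrogen to progesterone production, the cumulus matrix of hyaluronan and its binding proteins is laid down, proteases act on the follicle wall, and the oocyte leaves meiotic arrest. Immediate early genes, which need no new protein for their transcription, come first, and genes that depend on the factors they encode come later.

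Total counts per library ran from 1719240 to 3116260, and 12278 to 14288 genes had a count. Fewer genes had a count at 4 h than at 1 h, 12854 ± 381 (SD, n = 7) against 13663 ± 454 (n = 6; exact permutation test, two-sided, adjusted p = 0.0641 over 10 measures of library makeup). Without replicate 4 of the 1 h group the adjusted p was 0.0126. The mean total count was also lower at 4 h, 2281000 against 2596750 at 1 h (adjusted p = 0.292, exact permutation test). The part of depth in the number of detected genes was not tested. Granulosa markers took 5.72% ± 0.698 of counts at 1 h and 5.09% ± 0.393 at 4 h (adjusted p = 0.124, exact permutation test), and all 12 were detected. Oocyte transcripts were scarce: 3 of 20 markers passed the expression filter, 2 (Zp2 and Padi6) reached 10 CPM in any library, Ddx4 was at 0 throughout, and the list summed to between 0.00106% and 0.0110% of counts. Theca and stroma markers summed to 0.0606% to 0.270% at 1 h and 0.0186% to 0.190% at 4 h (adjusted p = 0.124, exact permutation test). In whole follicles, fewer cells of a type and less RNA per cell cannot be told apart.

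Between 1 h and 4 h the fresh follicle changed a large part of its transcriptome. Of 6963 genes tested, 2035 were higher at 4 h (29.2%) and 2067 lower (29.7%), or 58.9% in all, at a Benjamini-Hochberg adjusted p under 0.05 in the quasi-likelihood test of edgeR. At least 4-fold changes, a log2 fold change of 2 or more in size, were called upward in 356 genes (5.11%) and downward in 611 (8.77%). In 2317 genes (33.3%) the CPM (counts scaled to library size) of the 6 and 7 libraries did not overlap. These shares are the background against which each gene list below is to be read. Fold changes are given as log2, 4 h minus 1 h, with a standard error. This error, here and below, is the size of the fold change divided by the square root of the test's F statistic, and is approximate. The median over all genes tested was 0.00. Scaling of the libraries places the centre of the fold changes near 0, so each change is relative to the other genes. A change in the total RNA of a follicle would not be seen.

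The largest rise was that of Sult1e1, which encodes the sulfotransferase that inactivates estrogens. It lies on chromosome 5 (GRCm38), bases 87575969 to 87591594, on the minus strand. Its level ran from 1.23 to 11.5 CPM at 1 h (median 7.31) and from 4649 to 10837 CPM at 4 h (median 7893), or 10.07 ± 0.38 in log2 fold change with its SE (adjusted p = 2.45e-12 by edgeR). Every 4 h follicle lay far above every 1 h follicle. Groups without overlap were part of the rule that chose the 10 largest rises and the 10 largest falls. Adcyap1, which encodes the neuropeptide PACAP, ran from 1.25 to 2.97 CPM at 1 h (median 1.86) and from 191 to 1315 CPM at 4 h (median 647), a change of 8.24 ± 0.60. Runx2, a transcription factor of the Runt family (chromosome 17, bases 44495987 to 44814797, minus strand), ran from 3.79 to 6.25 CPM at 1 h (median 5.38) and from 495 to 1182 CPM at 4 h (median 947) and rose by 7.31 ± 0.26 on the log2 scale. Its span overlaps Supt3 and 3 antisense genes, and the library kit does not mark strand. Supt3 had -0.75 and did not pass (edgeR adjusted p = 0.0719), but did without replicate 4 of the 4 h group, at -0.90 (adjusted p = 0.0389).

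Further large rises were those of ligands and surface proteins. Btc (betacellulin, an EGF-like ligand) ran from 14.3 to 47.3 CPM at 1 h (median 36.8) and from 1910.4 to 4183 CPM at 4 h (median 3366), and Alcam (an adhesion molecule of the immunoglobulin family) from 2.5 to 6.44 CPM at 1 h (median 2.94) and from 171 to 553 CPM at 4 h (median 492). Their log2 fold changes were 6.52 ± 0.27 and 6.77 ± 0.32. Nts (neurotensin) changed by 6.09 ± 0.70, Bmper (a secreted binder of bone morphogenetic proteins, BMPs) by 5.66 ± 0.27 and Ptx3 (pentraxin 3, which links the hyaluronan of the cumulus matrix) by 5.56 ± 0.70. In all of these the groups did not overlap, as the rule that chose them requires. Follicles of 1 time could still differ widely: Nts ran from 1.64 to 35.6 CPM at 1 h, and Ptx3 from 36.1 to 315 CPM at 4 h. Tmem26, a membrane protein, and Gm47662, a long intergenic RNA, completed the 10 largest rises at 7.07 ± 0.63 and 6.92 ± 1.06. Both had almost no counts at 1 h (medians of 0.208 and 0 CPM), so that their folds are imprecise. Without replicate 3 of the 1 h group they were 7.82 and 8.39, and Nts was 6.90. Gm47662 was 6.25 without replicate 7 of the 4 h group.

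**Figure D1:**
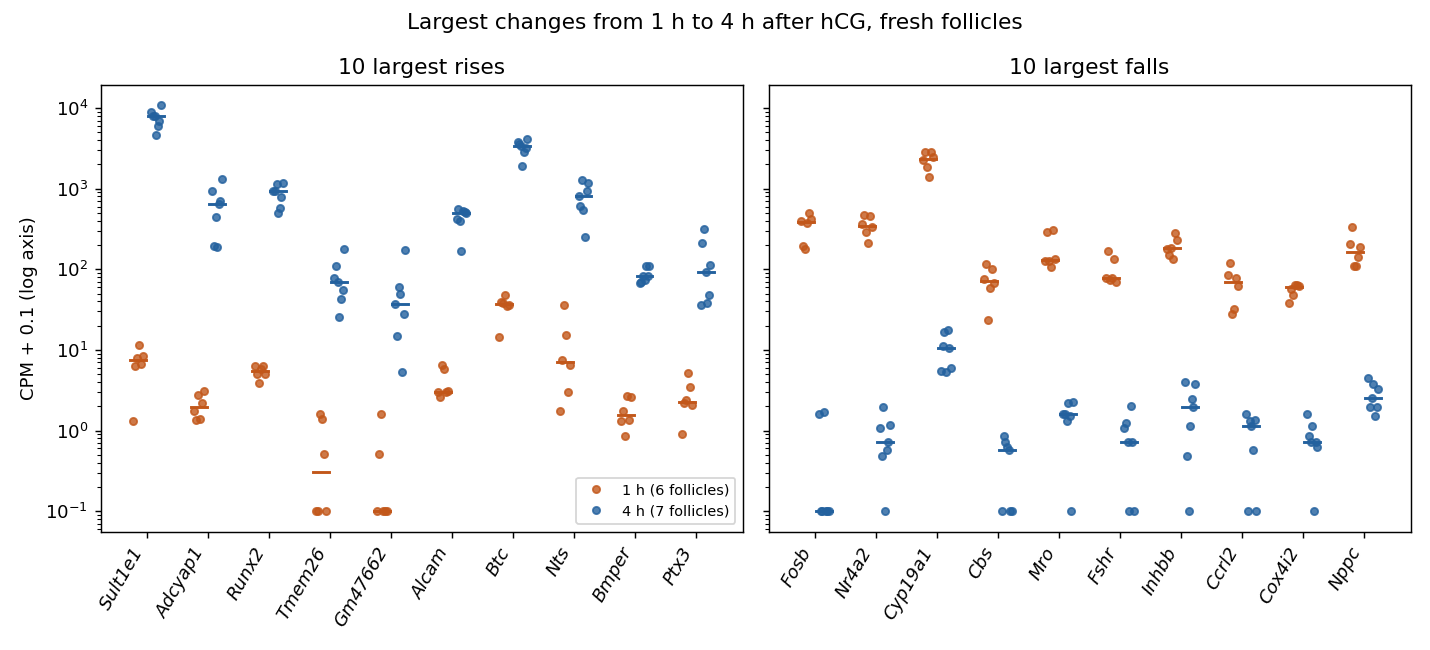
CPM of the 10 genes with the largest rise and the 10 with the largest fall, on a log axis after adding 0.1. Each point is 1 follicle (6 at 1 h, orange, and 7 at 4 h, blue) and bars are medians; the groups do not overlap in any of the 20 genes, which is part of the rule that chose them.

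Fosb, a partner in the AP-1 transcription factor, ran from 179.9 to 498 CPM at 1 h (median 386) and from 0 to 1.58 CPM at 4 h (median 0), a change of -9.47 ± 0.52, with 6 counts over all 7 libraries of 4 h. That value was -10.11 and -10.15 without replicate 1 or 4 of the 4 h group. Nr4a2, an orphan nuclear receptor, ran from 212 to 468 CPM at 1 h (median 349) and from 0 to 1.84 CPM at 4 h (median 0.623) (-8.84 ± 0.32), with 10 counts over the 4 h libraries. Cyp19a1, the aromatase that makes estrogens (chromosome 9, bases 54165937 to 54268110, minus strand), ran from 1383 to 2843 CPM at 1 h (median 2361) and from 5.26 to 17.7 CPM at 4 h (median 10.6), a change of -7.80 ± 0.33 (edgeR adjusted p = 9.8e-12). Not one 1 h follicle had fewer than 1383 CPM, and not one 4 h follicle more than 17.7.

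Fshr, the FSH receptor of granulosa cells, ran from 69.3 to 171 CPM at 1 h (median 77.8) and from 0 to 1.91 CPM at 4 h (median 0.623) (-6.93 ± 0.40). Inhbb, the beta B subunit of activin and inhibin, changed by -6.66 ± 0.37, and Nppc, the precursor of the peptide CNP that holds the oocyte in meiotic arrest, by -6.07 ± 0.33. Nppc ran from 108 to 332 CPM at 1 h (median 165) and from 1.43 to 4.45 CPM at 4 h (median 2.45). The other 4 of the 10 largest falls were Cbs (cystathionine beta-synthase, which draws homocysteine into cysteine synthesis) at -7.50 ± 0.49, Mro (maestro) at -6.95 ± 0.38, Ccrl2 (a chemerin-binding receptor) at -6.46 ± 0.50 and Cox4i2 (an isoform of a cytochrome c oxidase subunit) at -6.18 ± 0.30. Over all 4 h libraries Cbs had 5 counts, and Ccrl2 and Cox4i2 had 10 each.

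Most immediate early genes were lower at 4 h. Of 24 transcription factors and related genes of this class that were tested, 19 fell and 1 rose, with a median of -2.52, and 16 had groups that did not overlap. The Nr4a receptors fell to different degrees: Nr4a1 ran from 18903 to 27854 CPM at 1 h (median 21348) and from 2076 to 5227 CPM at 4 h (median 3405) and changed by -2.64 ± 0.20, while Nr4a3 changed by -5.54 ± 0.37 and Nr4a2 by the value given above. Among AP-1 members Jun changed by -4.06 ± 0.16, Fos by -3.73 ± 0.24, Junb by -2.72 ± 0.23 and Fosl2 by -2.40 ± 0.15. Fosl1 was the exception: it ran from 2.46 to 18.8 CPM at 1 h (median 12) and from 37.4 to 61.8 CPM at 4 h (median 48.5), a rise of 2.03 ± 0.31. Btg2, an antiproliferative gene, changed by -4.85 ± 0.29, from a median of 3490.2 to one of 103 CPM. Egr1 changed little, with medians of 8888 and 5476 CPM (-0.59 ± 0.17, edgeR adjusted p = 0.00517), a call lost in the fit of all 83 libraries (adjusted p = 0.368). Egr3 and Ier3 had values of 0.06 ± 0.20 and 0.01 ± 0.15, neither past the threshold.

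Genes of cAMP signalling and its feedback fell in 11 of 17 and rose in 3, or in 1 without any 1 of replicates 1 to 4 of the 4 h group, with a median of -1.03. Crem, a cAMP-responsive transcriptional modulator, ran from 624 to 1329 CPM at 1 h (median 1064) and from 62.6 to 157 CPM at 4 h (median 99.7) (-3.26 ± 0.22). Pde7b, a phosphodiesterase that degrades cAMP, changed by -4.98 ± 0.29, the regulatory subunit Prkar2b of protein kinase A by -3.30 ± 0.35, and the kinases Sik1 and Sik2 by -1.84 ± 0.29 and -2.19 ± 0.20. Crtc2, a coactivator of the factor CREB, rose by 2.55 ± 0.24, and Creb1 itself by 1.50 ± 0.41. Of 10 genes of feedback on MAP kinase, the pathway downstream of the EGF receptor, 5 rose and 3 fell. The phosphatases Dusp6 and Dusp10 rose (2.31 ± 0.21 and 2.46 ± 0.42) along with Spry2 and Spred2 (2.15 ± 0.32 and 2.40 ± 0.26), whereas Dusp1 fell (-3.29 ± 0.24) with the Ras-like Rasd1 (-4.79 ± 0.28).

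Among the EGF-like ligands Btc rose as given above. Areg (amphiregulin) ran from 394 to 947 CPM at 1 h (median 756) and from 419 to 1099 CPM at 4 h (median 965), with overlapping groups (0.12 ± 0.25, edgeR adjusted p = 0.688). Ereg (epiregulin) ran from 905 to 3418 CPM at 1 h (median 1719) and from 1509 to 5306 CPM at 4 h (median 3356), a value of 0.83 ± 0.34 at an adjusted p of 0.0451, a call lost without any 1 of replicates 1, 2, 3 and 4 of the 1 h group or 1, 3, 6 and 7 of the 4 h group, with adjusted p from 0.0565 to 0.0971. Hbegf fell from a median of 7.8 to 0.612 CPM (-3.99 ± 0.56), with 9 counts over the 4 h libraries. The receptors Egfr and Erbb2 had values of -0.28 ± 0.22, not past the threshold, and 1.03 ± 0.23, a rise. The sheddase Adam17, which frees these ligands from the membrane, had -0.48 ± 0.24 and did not pass, but did without replicate 2 of the 1 h group, at -0.62 (adjusted p = 0.0204). In all, 4 rose and 3 fell of 13 tested among 20 listed, and 5 fell without replicate 2 of the 1 h group. Over all genes 29.2% rose and 29.7% fell.

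Factors known to be needed for ovulation rose in 7 of 15 and fell in 4, against 29.2% and 29.7% of all genes. Pgr, the progesterone receptor, ran from 806 to 2380.1 CPM at 1 h (median 1969.9) and from 5562 to 11495 CPM at 4 h (median 7153), a rise of 2.04 ± 0.23. Runx1 rose by 5.25 ± 0.23 with a lowest 4 h follicle of 1597 CPM against a highest 1 h follicle of 68.8. Pparg changed by 2.89 ± 0.26, Hif1a by 1.46 ± 0.16 and the protease Ctsl by 1.34 ± 0.15. Adamts1, a protease that cleaves versican and a known target of Pgr, went the other way: it ran from 3055 to 6690.1 CPM at 1 h (median 5149) and from 261 to 710.3 CPM at 4 h (median 483), a change of -3.38 ± 0.22. Nrip1 and Rgcc fell too (-2.45 ± 0.36 and -2.27 ± 0.34).

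Genes of the prostaglandin pathway moved in both directions. Ptgs2, the inducible synthase of prostaglandin H2, ran from 32.4 to 121 CPM at 1 h (median 103) and from 1589 to 4264 CPM at 4 h (median 2017) (4.78 ± 0.34), and Pla2g4a, which frees its substrate arachidonic acid, rose by 4.24 ± 0.40. Of the prostaglandin E synthases, Ptges fell (-3.98 ± 0.26) and Ptges2 and Ptges3 rose (1.80 ± 0.41 and 0.48 ± 0.11). Hpgd, which inactivates prostaglandins, had 116 counts over the 1 h libraries and 3 over those of 4 h, a ratio of 39.6 after scaling to library size (exact 95% interval 13.2 to 195, counting error only). Its fitted change was -4.98 ± 0.53, and -5.97 without replicate 3 of the 4 h group. The receptor Ptger4 changed by -2.55 ± 0.29. The list had 5 higher and 4 lower of 10, with 8 not overlapping.

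Of the cumulus matrix genes 4 rose and 1 fell of 7. Vcan (versican) ran from 1339 to 2672 CPM at 1 h (median 2087) and from 11104 to 29092 CPM at 4 h (median 20415) and rose by 3.28 ± 0.20. Tnfaip6, which transfers heavy chains onto hyaluronan, ran from 43.8 to 129.7 CPM at 1 h (median 87.3) and from 1186 to 4109 CPM at 4 h (median 3135) (4.85 ± 0.38), and the hyaluronan receptor Cd44 rose by 2.72 ± 0.37. Has2, the hyaluronan synthase of cumulus cells, did not follow them: its range was 4.1 to 18.3 CPM at 1 h and 4.29 to 18.1 CPM at 4 h, a value of 0.10 ± 0.37 that did not pass. Among 28 proteases and inhibitors 9 rose and 12 fell, against 29.2% and 29.7% of all genes. Plau, the urokinase plasminogen activator, rose by 1.89 ± 0.21 (medians 3180.5 and 9580 CPM), Pcsk5 by 3.86 ± 0.32 and the inhibitor Timp1 by 3.75 ± 0.39. Serpina3a and Serpina5, protease inhibitors of the serpin family, fell (-2.60 ± 0.57 and -3.15 ± 0.45). Serpina3a belongs to a family of near copies whose reads may be split between them.

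**Figure D2:**
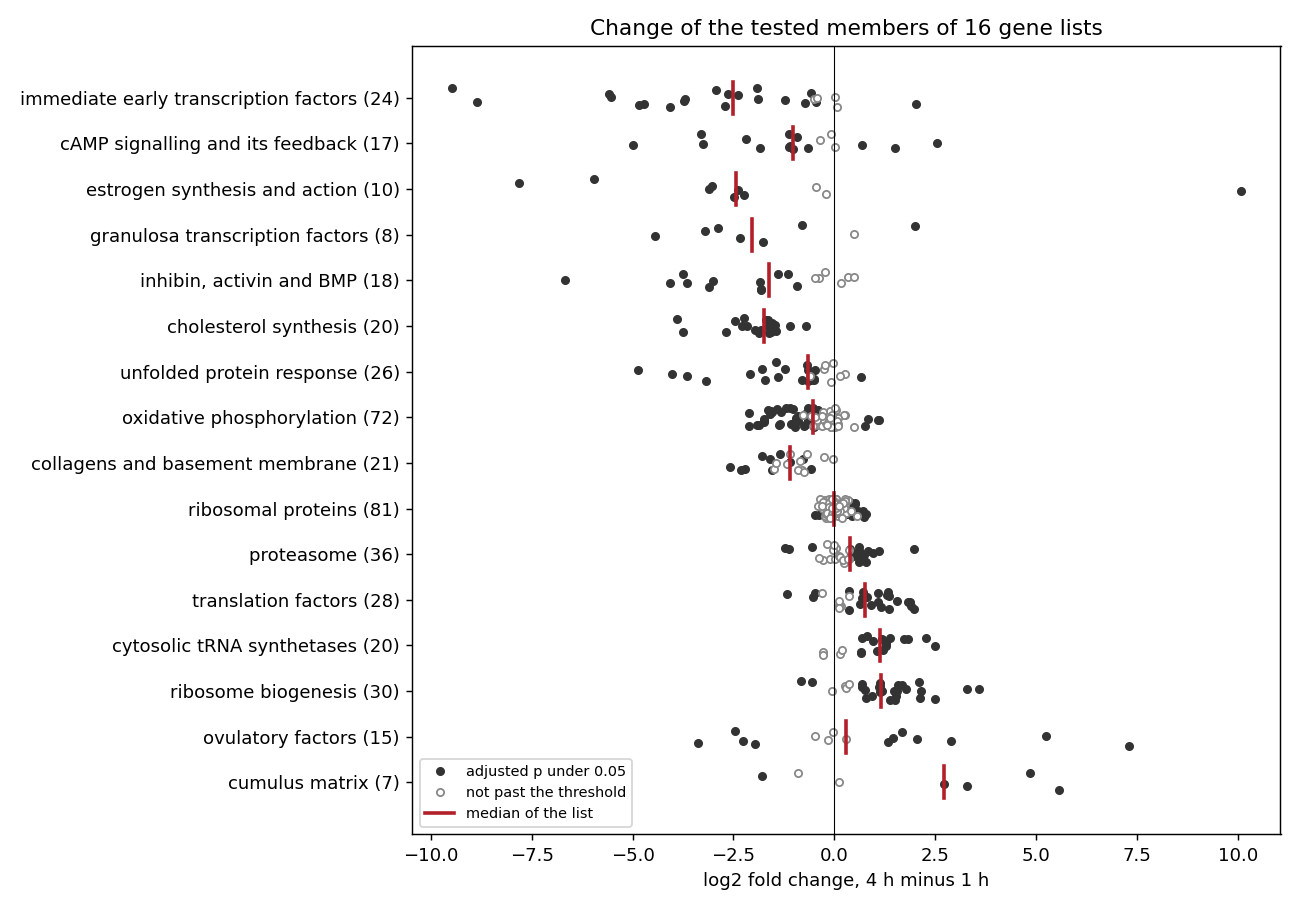
Log2 fold change, 4 h minus 1 h, of each tested member of 16 gene lists, with the number tested in brackets. Filled points passed an adjusted p of 0.05, open points did not, and red bars are medians, which run from -2.52 for immediate early factors to 2.72 for the cumulus matrix.

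Of 10 genes of estrogen synthesis and action 7 fell. These were all 4 tested genes of synthesis, the receptors Esr1 and Esr2, and the estrogen-responsive Greb1. Of the inactivation genes Sult1e1 rose, and Hsd17b4 had -0.46 ± 0.24 and did not pass, but did without replicate 2 of the 1 h group, at -0.57 (edgeR adjusted p = 0.0439). Hsd17b1, which turns estrone into estradiol, ran from 2241 to 3511 CPM at 1 h (median 2657) and from 12.1 to 86 CPM at 4 h (median 47.4) (-5.95 ± 0.40). The estrogen receptors Esr1 and Esr2 changed by -2.48 ± 0.43 and -2.38 ± 0.32, and the estrogen-responsive Greb1 by -3.02 ± 0.28. Cyp17a1, the theca enzyme that makes the androgen substrate, changed by -3.11 ± 0.73, but its ranges overlapped (34.6 to 243 CPM at 1 h and 1.89 to 48.5 at 4 h). It is a marker of theca, whose summed share had a lower mean at 4 h as given above, and the part of this in the change was not tested.

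Genes of progesterone synthesis rose in 3 and fell in 9 of 16. Star, which brings cholesterol into mitochondria, ran from 9250.3 to 21403 CPM at 1 h (median 11653) and from 4903 to 17568 CPM at 4 h (median 9800.1), a value of -0.35 ± 0.31 that did not pass (edgeR adjusted p = 0.348). Cyp11a1, which makes pregnenolone from that cholesterol, had 0.00 ± 0.45 and spread over 1680.5 to 8607 CPM at 1 h alone. Hsd3b1, the next enzyme, ran from 20419.6 to 27671 CPM at 1 h (median 24927) and from 5131 to 14290.1 CPM at 4 h (median 10063) (-1.34 ± 0.17). Reads of its near copy Hsd3b6 may be shared with it. Scarb1, the receptor that takes up cholesterol from high-density lipoprotein, rose (1.58 ± 0.21). Soat1, which stores cholesterol as esters, fell from a median of 7653 to 1277 CPM (-2.38 ± 0.22), and Nceh1, which frees it again, changed by -4.41 ± 0.50, with 8 counts over the 4 h libraries.

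Most receptors and transcription factors that mark the granulosa cell fell. Lhcgr, the LH receptor, ran from 784 to 4190.2 CPM at 1 h (median 2121) and from 54 to 265 CPM at 4 h (median 68.5), a change of -4.21 ± 0.55, and Fshr fell as given above. The receptors for anti-Müllerian hormone and prolactin, Amhr2 and Prlr, changed by -3.74 ± 0.28 and -1.94 ± 0.24, and Igf1r rose (1.52 ± 0.25). Among 8 hormone receptors 6 fell and 1 rose (2 without replicate 2 of the 1 h group). Of 8 granulosa transcription factors 6 fell: Nr5a2, which drives steroid genes, ran from 2016 to 3803 CPM at 1 h (median 2675) and from 86 to 196 CPM at 4 h (median 122) (-4.45 ± 0.22), Foxo1 and Foxo3 changed by -3.19 ± 0.41 and -2.89 ± 0.18, and Gata4 by -1.76 ± 0.21. Nr5a1 had 0.49 ± 0.25 and did not pass, and Zfpm2 rose, from a median of 2.78 to 11.6 CPM. Foxl2 did not pass the expression filter. Of 10 tested granulosa markers 8 fell and none rose. The 8 were Cyp19a1, Hsd17b1, Esr2, Fshr, Amhr2, Nr5a2, Inhbb and Fst, all given with other lists too, so this is not a further result. The 2 remaining, Inha and Inhba, had 0.17 ± 0.13 and -0.37 ± 0.16. Inhba passed without replicate 1 or 3 of the 1 h group, at -0.43 and -0.47, and with total counts as the scale (-0.33). The median of this marker list was -4.10, while its summed share of counts is the one given above. Inha, which was not called, held the largest part of that sum, at the levels given below.

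Inhibin, activin and BMP genes fell in 12 of 18 and rose in none (median -1.61). The activin and inhibin subunits parted: Inha ran from 30022 to 44356 CPM at 1 h (median 32818) and from 33269.5 to 52019 CPM at 4 h (median 37516), and Inhbb fell as given above. The BMP receptor Bmpr1b changed by -3.12 ± 0.23, the coreceptor Tgfbr3 by -4.08 ± 0.23, the BMP inhibitor Grem1 by -1.14 ± 0.21, and follistatin (Fst) by -1.82 ± 0.21. Id3, a target of BMP signalling, fell from a median of 2480 to 203 CPM (-3.65 ± 0.23). The CNP receptor Npr2 fell (-3.02 ± 0.23) with its ligand Nppc, and Gja1, the main gap junction protein of granulosa cells, changed by -1.24 ± 0.22 with overlapping ranges. In the list of meiotic arrest and gap junctions 5 of 6 fell and Npr1 rose (1.93 ± 0.38). Kitl, the granulosa ligand for the oocyte receptor Kit, changed by -3.32 ± 0.53, and by -2.73 without replicate 5 of the 1 h group. Of this pair Kitl fell, and Kit had -1.32 ± 0.76 and passed only without replicate 4 of the 4 h group, at -2.09 (adjusted p = 0.0193).

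Genes of Wnt signalling rose in 5 of 9, or in 3 without replicate 7 of the 4 h group, and fell in 1, or in 2 without replicate 2 or 5 of the 1 h group. The secreted inhibitor Sfrp2 rose by 5.55 ± 0.53 (6.31 without replicate 5 of the 1 h group), and the receptor Fzd4 fell (-5.20 ± 0.28). Wnt2 had 3 counts over the 1 h libraries and 166 over those of 4 h, a ratio of 54.0 (exact 95% interval 18.2 to 264, counting error only). Its fitted change was 5.35 ± 0.65, and 6.21 without replicate 3 of the 1 h group. Sfrp4 rested on 1 follicle: 1 library of 4 h stood at 4150.3 CPM against a median of 98.6, and the value of 3.50 ± 1.21 was 0.98 without that library (replicate 7, edgeR adjusted p = 0.0517). The call was also lost without any 1 of replicates 2, 4, 5 and 6 of the 1 h group (adjusted p up to 0.054). Insulin-like growth factor genes fell in 7 of 15 and rose in 2. Irs1 and Irs2, adaptors of the receptor, changed by -1.98 ± 0.26 and -1.45 ± 0.29, and Pappa, a protease that frees the growth factors from their binding proteins, rose (1.69 ± 0.26).

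Every gene of cholesterol synthesis tested was lower at 4 h. All 20 listed enzymes were tested and all fell, against 29.7% of all genes, with a median of -1.75 and 12 of 20 not overlapping. The 2 largest falls were those of consecutive mevalonate kinases, Mvk (-3.89 ± 0.39) and Pmvk (-3.76 ± 0.34). Mvk ran from 15.5 to 38.7 CPM at 1 h (median 30.1) and from 0.612 to 4.3 CPM at 4 h (median 1.05). Idi1, which isomerises the isoprene unit, ran from 229 to 527 CPM at 1 h (median 328) and from 25.3 to 100.2 CPM at 4 h (median 51.4) (-2.67 ± 0.28). Fdft1, the first enzyme committed to sterols, changed by -2.30 ± 0.27. The synthase Hmgcs1 changed by -1.61 ± 0.41 with overlapping ranges, and Sqle least, by -0.69 ± 0.21. In the map of 3 lists by library the 1 h follicles differed from each other too: Hmgcs1 ran from 121 to 1436 CPM among them.

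Of 12 genes that sense and move cholesterol 3 rose and 5 fell. Srebf2, the factor that drives the pathway, had -0.11 ± 0.15 and did not pass, while its escort Scap and its retention factor Insig1 fell (-1.65 ± 0.14 and -2.32 ± 0.20). The exporter Abca1 rose (2.57 ± 0.26), as did Vldlr (1.95 ± 0.18). The promoters of the pathway were searched for the sterol regulatory element, written TCACNCCAC, on both strands in the 250 bases before each RefSeq start. It was found in 1 of 18 windows, that of Hmgcs1, against 1.16% of the 6479 windows of tested genes. The stretch is shown because it is the 1 match in a list whose members all fell. It lies at chr13:119690168-119690267 (GRCm38.p6, plus strand), 5′ to 3′, and the capitals mark the element:
Hmgcs1: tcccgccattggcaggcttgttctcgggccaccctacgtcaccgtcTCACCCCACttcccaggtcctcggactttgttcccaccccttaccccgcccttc

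**Figure D3:**
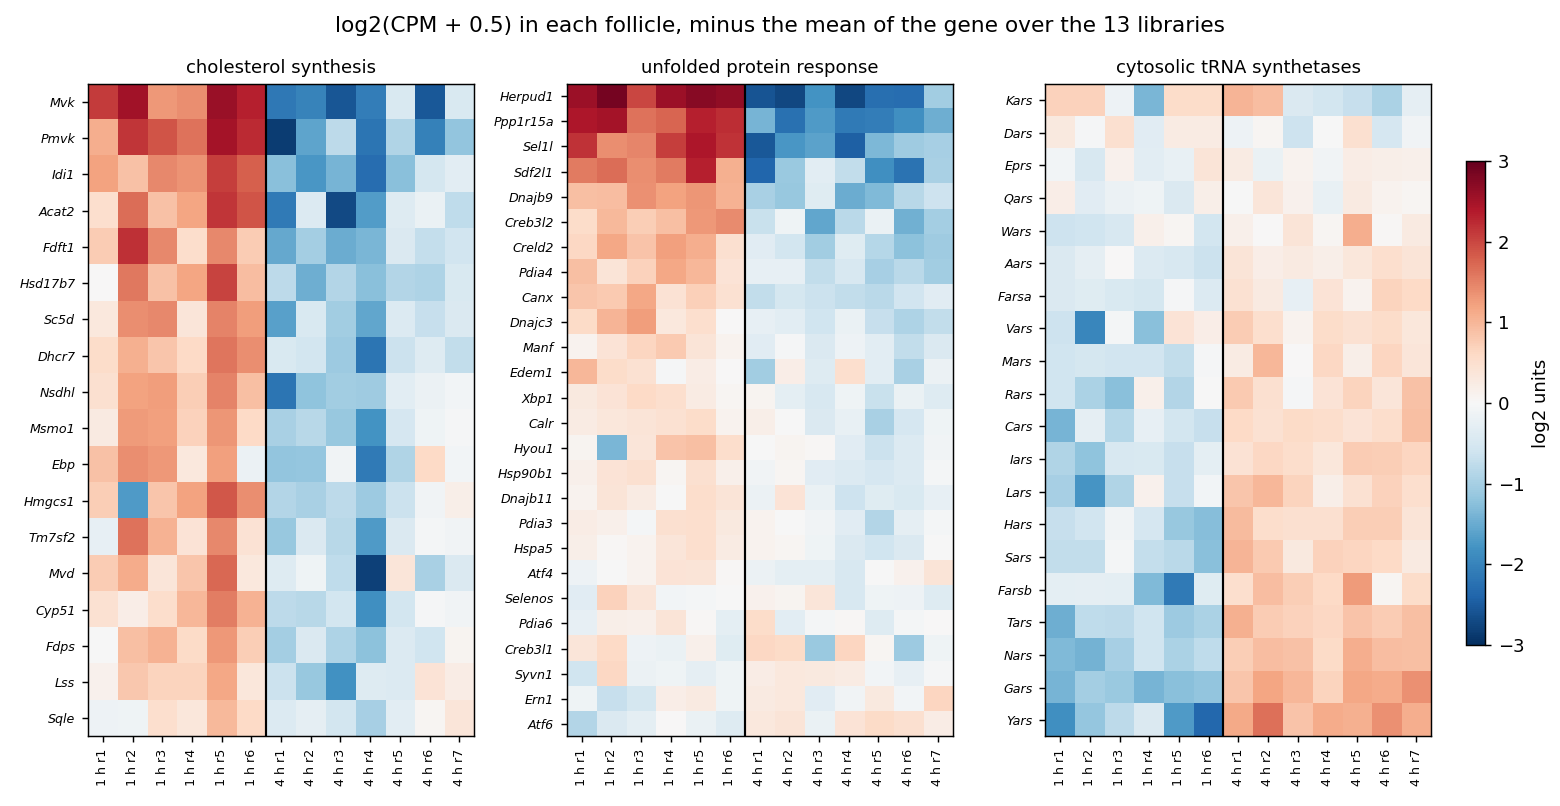
Each row is a gene and each column 1 follicle; colour is log2(CPM + 0.5) minus the mean of that gene over the 13 libraries, capped at 3, with genes ordered by their change and a black line between 1 h and 4 h. Cholesterol synthesis (18 of its 20 genes are drawn) is lower on average in the 4 h columns in every row, the unfolded protein response mainly in its upper rows (18 of 26 fell), and tRNA synthetases are higher in their lower rows (16 of 20 rose).

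The unfolded protein response, which answers unfolded protein in the endoplasmic reticulum (ER), fell in 18 of 26 genes and rose in 1 (2 without replicate 2 of the 1 h group), with a median of -0.66. Herpud1 and Sel1l, parts of ER-associated degradation, changed by -4.86 ± 0.27 and -3.64 ± 0.27, and Ppp1r15a, the phosphatase subunit that restores translation, by -4.02 ± 0.19. Herpud1 ran from 82.2 to 151 CPM at 1 h (median 126) and from 2.63 to 9.59 CPM at 4 h (median 3.74). Sdf2l1 and Dnajb9, which work with the ER chaperone BiP, changed by -3.17 ± 0.36 and -2.09 ± 0.18. BiP itself (Hspa5) ran from 2976 to 4120.4 CPM at 1 h (median 3350.4) and from 1909 to 3086 CPM at 4 h (median 2626), a value of -0.47 ± 0.13, and Hsp90b1, Calr and Canx had -0.57 ± 0.12, -0.65 ± 0.15 and -1.40 ± 0.13. Of the sensors tested, Atf6 rose (0.67 ± 0.19) and Ern1 did not pass (0.26 ± 0.19). The effector Atf4 had -0.25 ± 0.15 and did not pass either, and Xbp1 fell (-0.66 ± 0.14).

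The ER stress response element is CCAAT and CCACG with 9 bases of any kind between them. It was found on either strand in 8 of 22 windows of this list (36.4%). Among windows of tested genes 12 held it (0.185%), these 8 included, and 0.113% of 32851 windows in all. The list was drawn from known genes of this response, so the contrast describes the list and is not a test. The 8 genes were Calr, Canx, Creld2, Dnajc3, Hsp90b1, Hspa5, Pdia6 and Syvn1, of which 6 fell, by -1.72 ± 0.19 at most, and Pdia6 and Syvn1 did not pass (Syvn1 did without replicate 2 of the 1 h group, at 0.34). No window of a gene called at least 4-fold in either direction held it, those of Herpud1, Sel1l and Ppp1r15a included where the table gave one. Elements of 5 of these genes are shown because they share this sequence and belong to a list in which 18 of 26 fell. All are from GRCm38.p6, 5′ to 3′ on the strand of the gene, with the element in capitals. Where the capitals begin with CGTGG the element lies on the other strand. They lie at chr2:34771984-34772083 (plus strand), chr10:86705493-86705592 (minus), chr8:84847035-84847134 (minus), chr11:50325760-50325859 (minus) and chr15:88819479-88819578 (plus), in this order:
Hspa5: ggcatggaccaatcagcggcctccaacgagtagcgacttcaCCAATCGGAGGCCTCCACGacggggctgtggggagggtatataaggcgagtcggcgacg
Hsp90b1: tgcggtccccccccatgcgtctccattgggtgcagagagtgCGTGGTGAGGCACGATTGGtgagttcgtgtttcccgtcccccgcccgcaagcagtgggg
Calr: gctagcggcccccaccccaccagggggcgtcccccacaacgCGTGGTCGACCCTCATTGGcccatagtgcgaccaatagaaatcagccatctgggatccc
Canx: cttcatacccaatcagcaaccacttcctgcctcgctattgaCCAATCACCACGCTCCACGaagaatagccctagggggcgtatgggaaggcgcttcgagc
Creld2: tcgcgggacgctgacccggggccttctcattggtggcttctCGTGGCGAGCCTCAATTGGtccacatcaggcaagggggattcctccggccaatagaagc

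Of 19 chaperones of the cytosol and mitochondria 11 rose and 5 fell. Hsph1, a cochaperone of Hsp70, ran from 9.42 to 15.8 CPM at 1 h (median 11.1) and from 92.7 to 227 CPM at 4 h (median 113) (3.38 ± 0.23), and the heat shock factor Hsf1 rose by 1.71 ± 0.14. Hsp90aa1 and Hsp90ab1 rose by 0.82 ± 0.13 and 0.69 ± 0.11. The stress-inducible Hspa1a and Hspa1b fell (-5.23 ± 0.55 and -4.22 ± 0.52). These 2 genes are near-identical copies, so reads may be divided between them, and Hspa1a had 6 counts over all 4 h libraries. It was -6.32 without replicate 1 of that group. The cochaperone Bag3 also fell (-2.33 ± 0.18).

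Of 20 cytosolic tRNA synthetases, which load amino acids onto tRNAs, 16 rose and none fell, against 29.2% of all genes, with a median of 1.12. Yars ran from 2.97 to 12.8 CPM at 1 h (median 6.24) and from 31.8 to 55.5 CPM at 4 h (median 37.9) (2.49 ± 0.27) and Gars from 59.4 to 77 CPM at 1 h (median 66.6) and from 248 to 405 CPM at 4 h (median 338) (2.26 ± 0.14). Kars and Dars lay lowest at -0.29 ± 0.36 and -0.29 ± 0.20, neither past the threshold. Genes of serine and asparagine synthesis gave the 3 largest rises in amino acid supply. Psat1 ran from 6.43 to 13.5 CPM at 1 h (median 9.05) and from 280.2 to 511 CPM at 4 h (median 399.9), a change of 5.37 ± 0.22, Phgdh rose by 2.42 ± 0.22, and Asns, which makes asparagine, ran from 7.78 to 13.6 CPM at 1 h (median 10.4) and from 130 to 186 CPM at 4 h (median 152) (3.89 ± 0.16). The transporter Slc3a2 rose (1.79 ± 0.14) and Slc38a2 fell (-1.40 ± 0.18). In this list of 17 tested, 9 rose and 6 fell, Cbs being the largest fall.

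Several genes of these 2 groups are known targets of the factor ATF4 through an element called CARE, searched here as TGATGNAAT. It was found in 2 of 12 windows of tRNA synthetase genes (16.7%, Aars and Gars) and in none of 19 of amino acid supply, against 0.448% of windows of tested genes. The element was not particular to these groups. It was in 2 of 10 windows of the estrogen list (20.0%, Cyp19a1, which fell, and Sult1e1, which rose). Among granulosa transcription factors it was in 1 of 5 (Nr5a2, which fell). Windows of genes at least 4-fold higher held it in 1.3%, and those of genes at least 4-fold lower in 1.16%. The window of Gars is shown because Gars rose more than Aars. It lies at chr6:55037901-55038000 (GRCm38.p6, plus strand), with the element, here on the other strand, in capitals:
Gars: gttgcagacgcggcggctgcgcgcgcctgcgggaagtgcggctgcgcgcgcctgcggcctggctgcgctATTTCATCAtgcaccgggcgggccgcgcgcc

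Ribosome biogenesis rose in 24 of 30 genes and fell in 2, with a median of 1.16. Nop2, which methylates ribosomal RNA, ran from 1.25 to 4.95 CPM at 1 h (median 4.49) and from 17.6 to 50.8 CPM at 4 h (median 35.5) (3.28 ± 0.32), the assembly factor Wdr12 rose by 3.57 ± 0.40 from 8 counts over the 1 h libraries, and fibrillarin (Fbl) by 2.11 ± 0.24. Nop58 fell (-0.83 ± 0.14). Translation factors rose in 19 and fell in 3 of 28, with Eif4ebp1, an inhibitor of cap binding, at 1.98 ± 0.15, Eif5a at 1.35 ± 0.11 and the helicase Eif4a2 lowest at -1.18 ± 0.14. Of 81 ribosomal proteins 11 rose and 5 fell (0 to 8 fell when each library was left out), 65 did not pass, and the median was -0.01 with a range from -0.48 to 0.79. Their share called, 16 of 81, lay below the 58.9% of all genes. Many have processed copies in the genome, so single values are uncertain. Proteasome genes rose in 18 and fell in 3 of 36 (median 0.37). Pomp, which helps assemble the proteasome, rose by 1.10 ± 0.17, and Psme1 and Psme2, parts of an activator cap, fell (-1.12 ± 0.18 and -1.22 ± 0.36). Odc1, the first enzyme of polyamine synthesis, ran from 14.8 to 71.6 CPM at 1 h (median 40.3) and from 287 to 1222 CPM at 4 h (median 376) (3.71 ± 0.43), and Sat1, which exports polyamines by acetylation, rose by 2.61 ± 0.29. Polyamine genes rose in 5 and fell in 1 of 9.

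Nuclear genes of oxidative phosphorylation fell in 38 of 72, rose in 4 and did not pass in 30, with a median of -0.53. Within this list the largest falls lay in complex II and complex I. Sdha changed by -2.13 ± 0.16, Ndufs3 by -2.11 ± 0.21 and Ndufa10 by -1.91 ± 0.22. The list leaves out the cytochrome c oxidase isoform Cox4i2, which fell further (-6.18 ± 0.30). Atp5c1 of the ATP synthase ran from 219 to 312 CPM at 1 h (median 239) and from 39.8 to 115 CPM at 4 h (median 70.2) (-1.88 ± 0.19), while Atp5b of the same enzyme had 0.02 ± 0.11 and did not pass. Cox5a rose (1.09 ± 0.14). In glycolysis 5 rose and 11 fell of 20. The glucose transporter Slc2a1 rose by 2.74 ± 0.19 (medians 49.7 and 346 CPM), whereas Tpi1 and Aldoc fell (-1.26 ± 0.17 and -3.65 ± 0.28). Pfkm fell furthest (-5.06 ± 0.52), from 152 to 4 counts over each group, and was -5.69 without replicate 4 of the 4 h group. Ldha had -0.02 ± 0.14 and did not pass. Of 22 antioxidant genes 6 rose and 9 fell, against 29.2% and 29.7% of all genes: Nfe2l2 and Txn1 rose (1.77 ± 0.17 and 1.74 ± 0.16), and Srxn1, Gstm1 and Cat fell (-4.29 ± 0.26, -2.76 ± 0.21 and -2.74 ± 0.33).

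Collagens and basement membrane genes fell in 10 of 21 and rose in none (median -1.10), and 4 had groups that did not overlap. Without replicate 3 or 4 of the 1 h group 6 fell. Lama1, Lama4 and Lamb1, chains of laminin, changed by -2.59 ± 0.37, -2.31 ± 0.35 and -2.22 ± 0.30. Col1a1 ran from 32.4 to 361 CPM at 1 h and from 14.3 to 230 at 4 h (-1.50 ± 0.66, not past the threshold). It passed without replicate 2 of the 1 h group, at -1.72, and without replicate 4 of the 4 h group, at -2.12, the 4 h library with the highest share of theca and stroma markers. The theca and stroma markers include Col1a1, Col1a2 and Col3a1, so their share and their falls are not independent of the collagen genes. Of 11 such markers tested 4 fell (7 without replicate 4 of the 4 h group) and none rose (median -1.31). Lum had -2.58 ± 0.56 and Dcn -1.68 ± 0.52 (its call was lost in the edgeR fit of all 83 libraries, adjusted p = 0.0511). The summed share of these markers is given above. Endothelial markers fell in 2 of 5, or in 1 without any 1 of 7 libraries, with sums from 0.00105% to 0.0156% at 1 h and from 0.000629% to 0.0108% at 4 h. The part of these cells in the falls of matrix genes was not tested.

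Of 15 p53 targets and growth arrest genes 8 fell and 1 rose, or 2 without replicate 2 of the 1 h group (median -1.07). Gadd45b ran from 208 to 469 CPM at 1 h (median 321) and from 0.478 to 9.89 CPM at 4 h (median 6.85) (-5.95 ± 0.47), and Gadd45g and Plk2 changed by -4.91 ± 0.36 and -3.36 ± 0.35. Cdkn1a, the cell cycle inhibitor p21, had 0.30 ± 0.21 and did not pass, or 0.46 (adjusted p = 0.0495) without replicate 2 of the 1 h group. In cell cycle and DNA replication 8 of 21 fell and 1 rose (median -0.65), with Mcm2 at -2.12 ± 0.49 and Ccna2 at -1.48 ± 0.22.

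Among genes with a mean of at least 500 CPM in each group, the 5 smallest changes were those of Rps3a1, Cyp11a1, Gm10052, Gm28439 and Rpl13. Rps3a1 ran from 945 to 1361 CPM at 1 h (median 1119.9) and from 957 to 1375 CPM at 4 h (median 1119.7), a value of 0.00 ± 0.12, and Rpl13 had 0.01 ± 0.11. Gm10052 is annotated as a processed pseudogene and Gm28439 as an unprocessed one, so their reads may belong to the parent genes. Cyp11a1 had the widest error of the 5, 0.00 ± 0.45.

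Over all fresh times, genes that rose by 4 h differed in their level at 8 h. Sult1e1 had a median of 0 CPM at 0 h, 7893 at 4 h and 272 at 8 h (4 follicles), Btc 3366 at 4 h and 88.5 at 8 h, and Ptgs2 2017 and 18. Runx2 had 947 CPM at 4 h and 1942 at 8 h, with ranges that did not overlap (495 to 1182 and 1624 to 2730.5). Cyp19a1 had a median of 195 CPM at 0 h, 2361 at 1 h and 1.17 at 8 h, and Lhcgr one of 293 after 68.5 at 4 h. The 0 h libraries were on another plate, so levels at 0 h are set beside the others as a description only.

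**Figure D4:**
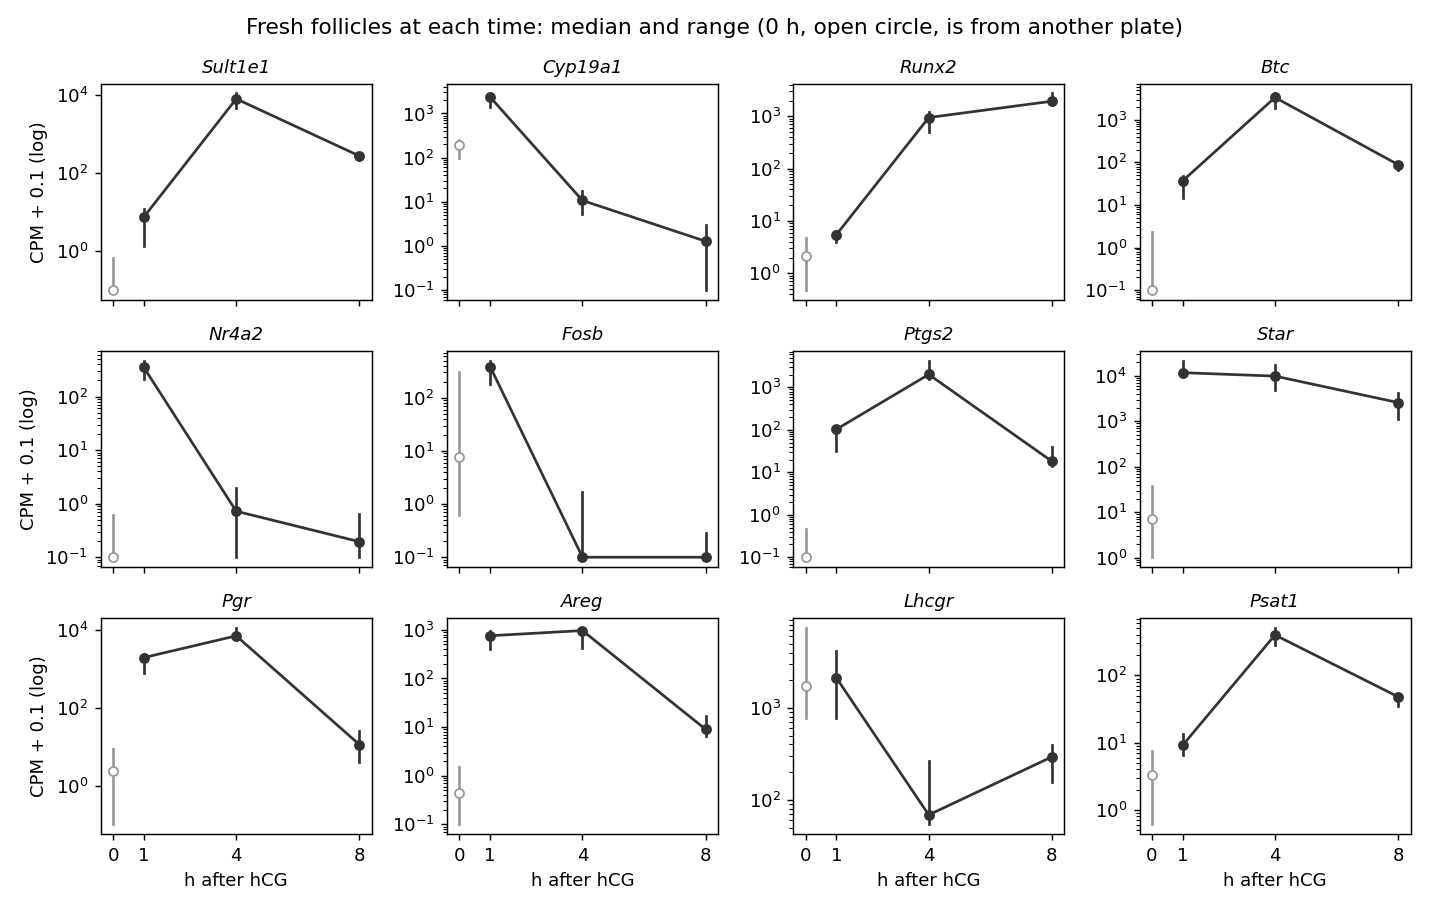
Median and range of CPM (log axis, 0.1 added) of 12 named genes in fresh follicles at 0 h (18, open circle, another plate), 1 h (6), 4 h (7) and 8 h (4) after hCG. Sult1e1, Btc, Ptgs2 and Psat1 are highest at 4 h, Runx2 at 8 h, and Fosb, Nr4a2 and Cyp19a1 at 1 h.

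Vitrified follicles of the same plate share no library with the fresh ones. Of the 4102 genes called in fresh follicles, 4038 had the same direction in vitrified ones and 3400 were called there in that direction. The difference between the 2 changes was called in 0 of 8261 genes (0%) by edgeR's interaction test, with 513 at an unadjusted p under 0.05. DESeq2 called 2, Nfkbia and Sos2. The smallest p-values were those of Nfkbia, an inhibitor of NF-kB, Slmap, a membrane protein, and Lrrn3, a leucine-rich repeat protein. Nfkbia changed by 1.45 ± 0.23 in fresh and 3.10 ± 0.26 in vitrified follicles, a difference of 1.62 ± 0.32 (edgeR adjusted p = 0.167). Slmap had -0.21 ± 0.33 and -2.57 ± 0.38, a difference of -2.39 ± 0.55, and Lrrn3 4.27 ± 0.31 and 2.39 ± 0.33, one of -1.90 ± 0.44 (adjusted p = 0.539 for both). The median standard error of a difference was 0.429. In counts simulated at this size, 100 of 8261 genes differed by 2 log2 units and 100 by 1. Of those tested, 65.3% and 18.4% were recovered in this order, so smaller differences could be missed.

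Among the genes described above Sult1e1 changed by 9.22 ± 0.41 in vitrified follicles, Runx2 by 7.39 ± 0.40, Cyp19a1 by -7.46 ± 0.32, Fosb by -8.71 ± 0.54 and Ptgs2 by 4.19 ± 0.41. Of the 20 cholesterol genes 19 fell in vitrified follicles (median -1.83), and of the tRNA synthetases 16 rose and 1 fell. Odc1 and Ptx3 had wider gaps, 0.52 ± 0.81 and 2.65 ± 0.82 in vitrified against 3.71 ± 0.43 and 5.56 ± 0.70 in fresh follicles (edgeR adjusted p of the difference 0.708 and 0.765), and were singled out after their values were seen. In Odc1 the vitrified 1 h follicles ran from 43.2 to 1722 CPM. Of the genes called in both, 5 had opposite directions: Ciz1, Eif3b, Btg3, Sos2 and Gm20721. Eif3b, a subunit of an initiation factor, changed by 1.08 ± 0.42 in fresh and -2.66 ± 0.74 in vitrified follicles. None of the 5 differences passed (edgeR adjusted p from 0.582 to 0.708). Their fresh calls lay near the threshold: that of Ciz1 was lost without replicate 1 of the 1 h group, Eif3b without any 1 of 6 libraries (replicates 1, 3, 5 and 6 of 1 h, 3 and 4 of 4 h), Btg3 without any 1 of 6 (3 to 6 of 1 h, 3 and 7 of 4 h), Sos2 without any 1 of 8 (1 to 6 of 1 h, 3 and 7 of 4 h) and Gm20721 without any 1 of 8 (3 to 6 of 1 h, 1, 2, 3 and 7 of 4 h). Over these fits the adjusted p ran up to 0.0523, 0.0882, 0.12, 0.113 and 0.134 in this order.

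**Figure D5:**
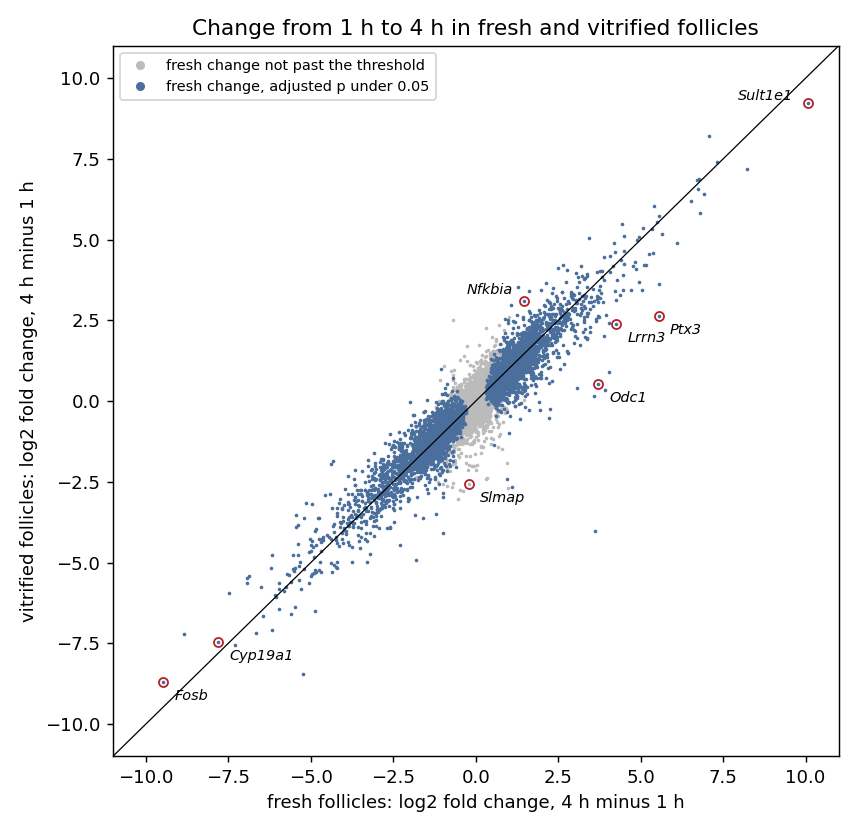
Log2 fold change, 4 h minus 1 h, of each gene in fresh (x) and vitrified (y) follicles of 1 plate, with the line of equal change. Blue points passed an adjusted p of 0.05 in fresh follicles, and 8 genes are circled, among them the 3 with the smallest p for the difference (Nfkbia, Slmap and Lrrn3), none of which passed the adjusted threshold.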

How the data were processed

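RNA of single follicles was amplified by the Smart-Seq2 method, which does not mark strand. The authors deposited a table of estimated counts per gene (expected counts, 15.7% of values in the 13 libraries not whole) and a table of log2(TPM + 1). The submitters' processing notes name Partek, Bowtie2, HISAT2, DESeq2 and mm10, with no role or order, so which of them gave each deposited table is not known here. Of the symbols, 21 had become dates, and 13 of these were tested without a name.

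The estimated counts, rounded to integers, were fitted for the 13 libraries alone with edgeR 4.0.16 in R 4.3.3 (TMM scaling, filterByExpr with a minimum count of 10, robust quasi-likelihood test, Benjamini-Hochberg adjustment over 6963 genes). CPM values are after TMM scaling over all 83 libraries. The difference from vitrified follicles was an interaction term over 25 libraries of 1 plate. Alternatives were RLE size factors, total counts, no filter, DESeq2 1.42.0, limma 3.58.1 on log2(TPM + 1), a fit of all 83 libraries with a plate term, and each library left out. In simulated counts 100 of 6963 genes changed by 1 log2 unit and 100 by 2. Of those tested, the main test recovered 67.4% and 97.9% in this order, and it called 0.0657% of unchanged genes. In the data 58.9% of genes were called, a far larger share than was simulated, and recovery at that share was not tested. Makeup measures were compared by exact permutation over 1716 arrangements.

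Genes were named by rule: the 10 largest rises and falls among called genes with no overlap and at least 50 CPM in the higher group, the largest movers and role-defining members of each list, the 5 smallest changes with at least 500 CPM in both groups, and the 3 smallest interaction p-values. The comparison and its gene lists were chosen with earlier results of these data known. Promoter windows came from RefSeq (GRCm38.p6), a table that is not complete: 5041 tested genes had one. Of 9 motifs searched, the sequences printed were chosen after the search. Gene positions are from GENCODE vM21 (GRCm38), matched by symbol for 98.7% of tested genes. Values of some members of the lists are not reported here, although the counts and medians of the lists include them. The labels name no animal or culture run, so follicles of a group may share one and need not be independent. The p-values set the difference between groups against the spread between these follicles, which may be technical.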

Additional observations from a re-analysis of the deposited data

Results flagged for a closer look

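In each time group the highest and the lowest follicle were compared with the others for every gene named and for the library measures, on the scale of log2(CPM + 0.5) for genes. Of 516 groups of values 25, or 4.84%, held 1 library apart from the rest by Dixon's criterion at 95%, and chance gives about 1 in 20.

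Replicate 1 of the 1 h group was low in 5 genes that rose by 4 h: Sult1e1 (1.23 CPM), Btc (14.3 CPM), Ptgs2 (32.4 CPM), Fosl1 (2.46 CPM) and Pgr (806 CPM). Replicate 3 of that group was low in Btg2 (1759 CPM), Herpud1 (82.2 CPM) and Il1r1 (38.6 CPM), replicate 2 in Hmgcs1 (121 CPM) and replicate 4 in Tgfbr3 (63.3 CPM).

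At 4 h, replicate 4 had the highest share of theca and stroma markers (0.190% of counts) and of oocyte markers (0.0102%), and it was the lowest library for Alcam (170.6 CPM), Itga2 (546 CPM), Fst (45.8 CPM) and Inhba (11034 CPM). Replicate 3 was low in Adam17 (10.4 CPM) and Eif4ebp1 (283.5 CPM) and high in Nr5a1 (156.8 CPM). Replicate 7 was high in Sfrp4 (4150.3 CPM) and low in Nop2 (17.6 CPM), replicate 6 was low in Id3 (99.7 CPM) and Mro (0 CPM), replicate 2 in Lyz2 (0 CPM) and replicate 1 in Slmap (1.98 CPM).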

How the results depend on the processing

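No paired analysis was possible because the replicate numbers were given in accession order and the labels pair no follicles. Without the expression filter 3247 genes were lower at 4 h. Genes called at least 4-fold higher numbered 772 without the filter, 164 with limma on log2(TPM + 1) and 621 in the fit of all 83 libraries, and those at least 4-fold lower 1570, 337 and 1136. The test without a filter covered 20102 genes and the fit of all 83 libraries 11521, against 6963. The cause of the lower counts with limma (6621 genes) was not tested. Differences between vitrified and fresh changes numbered 2 without the filter (Nfkbia and Slmap), 2 with DESeq2 and 4 in the fit of all 83 libraries (Eif3b, Hnrnpu, Nfkbia and Sos2), and from 0 to 1 when each library was left out, with Nfkbia called without replicate 5 of the 1 h group. The difference in detected genes ran from -946.2 to -684.2 over the fits without 1 library, and passed without replicate 4 of the 1 h group. No called gene named here changed direction under any alternative in which it had a value. With limma 211 of the 248 genes had one. Some folds were much smaller with limma on log2(TPM + 1): Runx2 was 3.21 against 7.31, Tmem26 2.27 against 7.07, Alcam 2.88 against 6.77 and Cbs -3.12 against -7.50. Sult1e1 was 9.36 there, against 10.07. Sfrp4 was 0.90 with DESeq2, against 3.50. Of 106 counts of list members that rose or fell, 21 moved by more than 1.5 times without the filter, 21 with limma and 17 in the fit of all 83 libraries. With DESeq2 2 moved, with total counts 2 and with RLE size factors 0. When 1 library was left out 3 to 11 moved, the most without replicate 2 of the 1 h group. Scaling by total counts moved the median of all genes to 0.04.

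Counts of 10 or fewer in a group limit the folds of Fosb, Nr4a2, Cbs, Ccrl2, Cox4i2, Hbegf, Pfkm, Hspa1a, Nceh1, Hpgd, Per2, Tmem26, Gm47662, Wdr12 and Wnt2, which are imprecise.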

Other observations

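Clock genes held some of the larger falls outside the groups described so far. Per2, a repressor in the circadian loop, had 142 counts over the 1 h libraries and 3 over those of 4 h, a ratio of 48.5 after scaling to library size (exact 95% interval 16.3 to 238, counting error only). Its fitted change was -5.30 ± 0.59, and -6.26 without replicate 4 of the 4 h group. Cry2, its partner, ran from 2443 to 4892 CPM at 1 h (median 4027) and from 102 to 339.9 CPM at 4 h (median 171) (-4.33 ± 0.28), and Nr1d2 changed by -2.93 ± 0.30. The activators Arntl and Clock rose (1.32 ± 0.30 and 0.75 ± 0.20), and Per1 had 0.26 ± 0.22 and passed only without replicate 2 of the 1 h group, at 0.49 (adjusted p = 0.0329). In all 2 rose and 4 fell of 10.

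Elovl6, a fatty acid elongase, ran from 172 to 387 CPM at 1 h (median 227) and from 7.91 to 20.2 CPM at 4 h (median 14.3) (-4.24 ± 0.24), and Elovl5 changed by -1.91 ± 0.17. The desaturases Scd2, Fads1 and Fads2 changed by -2.43 ± 0.22, -2.35 ± 0.25 and -2.15 ± 0.46. Acsl4, which activates arachidonic acid, rose (3.29 ± 0.30), and Scd1 had -0.07 ± 0.21 and did not pass. Hilpda, an inhibitor of lipolysis, rose by 2.18 ± 0.56, and by 2.81 without replicate 1 of the 1 h group. The lipid list had 2 higher and 9 lower of 21, and 4 higher without replicate 1 or 2 of the 1 h group or 6 of the 4 h group. In the pentose phosphate pathway 5 of 8 fell, Pgls by -1.45 ± 0.17. Among secreted peptides 4 rose and 1 fell of 6, with Tac1, the precursor of substance P, at 4.96 ± 0.54 beside Nts and Adcyap1.

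Of 15 adhesion genes 4 rose and 3 fell, or 5 without replicate 5 of the 1 h group. The counts of this list and those that follow are to be read against 29.2% higher and 29.7% lower over all genes. Itga2, a collagen receptor subunit, rose (3.43 ± 0.27), and Vcam1 ran from 12.9 to 107 CPM at 1 h (median 84.4) and from 1.22 to 8.1 CPM at 4 h (median 3.4) (-4.37 ± 0.51). Actin genes had 6 higher and 7 lower of 23, with Tagln2 at 2.35 ± 0.16 and Myl9 at -3.71 ± 0.51. Splicing proteins had 10 higher and 3 lower of 26, with Srsf5 lowest at -1.21 ± 0.17. Hnrnpll was highest at 2.25 ± 0.75, and 3.16 without replicate 3 of the 1 h group. Angpt2, a vessel growth factor, fell (-5.36 ± 0.49), 1 of 4 lower and 1 higher of 5 hypoxia genes. Of 8 genes responsive to glucocorticoid or progestin 3 fell, led by Tsc22d3 (-2.75 ± 0.42), and Mt2 rose (3.78 ± 0.54), a metallothionein whose copy Mt1 may share reads. NF-kB genes had 2 higher and 3 lower of 11, and of 4 cytokine genes tested Il1r1 rose (0.93 ± 0.19). In MHC class I 7 of 8 did not pass, and Tapbp fell (-1.53 ± 0.21). Of 3 tested oocyte markers 2 fell, Tle6 by -1.33 ± 0.52 and Zar1 by -1.66 ± 0.65, the latter -2.28 without replicate 4 of the 4 h group. Both calls lay near the threshold: that of Tle6 was lost without any 1 of 7 libraries (replicates 1 to 3 of each group and 7 of 4 h, adjusted p up to 0.0745) and that of Zar1 without any 1 of 8 (1, 3 and 5 of 1 h, 1, 2, 5, 6 and 7 of 4 h, up to 0.0735). Padi6 passed only without replicate 4 of the 4 h group, at -1.55. Of immune markers only Lyz2 was tested (-0.68 ± 0.67, not past the threshold), and no erythroid or surface epithelium marker was.

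Gene models resembling mitochondrial transcripts, 7 in number and defined after the data were seen, took from 1.72% to 2.20% of counts at 1 h and from 1.78% to 2.18% at 4 h. A single model, Gm10800, took from 2.22% to 4.95% at 1 h and from 2.34% to 6.51% at 4 h.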
